A study of Mus musculus with 176 samples.

Results

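The 40 genes described here drive or mark the cell division cycle, and they were followed one cell at a time in CD4 T cells that did or did not bind a tetramer of the peptide P6 with the mouse class II molecule I-Ab. They were chosen by name from the 53546 gene names of the count table: 4 cyclins and kinases of G1 phase, 14 genes of DNA replication and nucleotide synthesis (S-phase members), 18 genes of mitosis (mitotic members), the microtubule genes *Stmn1* and *Tubb5*, and the kinase inhibitors *Cdkn1a* and *Cdkn1b*. All 40 were in the table and each was listed 1 time. A member was counted as detected in a cell at 10 or more reads. A cell with 5 or more of the 32 S-phase and mitotic members detected is called a multi-member cell below, since a single transcript of one gene is a weak sign of a dividing cell.

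The mice were C57BL/6J animals immunized with the peptide P6 of apolipoprotein B in adjuvant, and the cells came from their lymph nodes. CD4 T cells with high CD44 and without CD62L, the surface pattern of antigen-experienced cells, were sorted singly as tetramer-binding (P6+) or not (P6-), and full-length cDNA was sequenced by Smart-Seq2. Limits on reads, genes and mitochondrial reads left 161 cells, of which 32 were P6+ and the rest P6-, with medians of 1731608 and 1500457 reads on genes and of 4396 and 3432 genes. The authors also removed cells with a low mapping rate and kept all P6+ but fewer P6- cells. That limit was not applied here. The P6+ cells came from 1 mouse, and their names carried 1 prefix, which 11 of the P6- cells shared. This prefix is taken here as the plate, which is an inference from the names. Plate and tetramer sign therefore cannot be told apart for the other P6- cells, whose mouse or mice the labels do not name. The cells are not replicates of a condition. No test was therefore made between groups, and 95% intervals (exact binomial for shares of cells, exact Poisson for sums of reads) cover counting error only. Reads of pre-amplified cDNA were not tagged per molecule, so many of them can stem from 1 transcript. The P6+ cells were also divided by the variable segment gene *Trbv13-2* of the T cell receptor beta chain: 16 cells held 48 to 780 reads of it, and the other 16 held 0 or 1 read.

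A dividing cell passes from G1 phase, where D-type cyclins with *Cdk4* and *Cdk6* release E2F factors from the retinoblastoma protein, through DNA replication in S phase to mitosis. E2F factors switch on the helicase subunits *Mcm2* to *Mcm7*, the sliding clamp *Pcna* and the enzymes that make deoxynucleotides. Genes of mitosis follow, under the MuvB complex with B-Myb and FoxM1, and CD4 T cells that meet their antigen run through this cycle quickly in the lymph node, while resting memory cells leave it with high *Cdkn1b*.

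The timing of these groups is written partly into their promoters, and 8 of them are shown. *Top2a*, *Ccnb2*, *Cdk1*, *Mcm3* and *Mcm6* were picked to show the words named next, and *Rrm2*, *Tk1* and *Birc5* because these genes, among those with the widest differences below, hold neither an E2F word nor TTTGAA. The sequences are RefSeq entries of GRCm38.p6, from 150 bases before to 30 bases after the start, 5′ to 3′ on the strand of the gene. In the mitotic promoters capitals mark TTTGAA (the cell cycle homology region, CHR, a contact of MuvB) and CCAAT (the word of the factor NF-Y), and in the S-phase promoters they mark the E2F words TTTCCCGC, TTTGGCGC and TTTCGCGC and CCAAT, each on either strand. The RefSeq start of *Mcm6* lies just upstream of the gene in GENCODE.
Top2a, chr11:99024160-99024339, minus strand: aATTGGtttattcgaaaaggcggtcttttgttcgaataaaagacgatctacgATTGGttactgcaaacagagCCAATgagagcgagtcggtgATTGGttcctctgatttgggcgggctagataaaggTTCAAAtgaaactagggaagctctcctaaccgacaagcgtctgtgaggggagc
Ccnb2, chr9:70421525-70421704, minus strand: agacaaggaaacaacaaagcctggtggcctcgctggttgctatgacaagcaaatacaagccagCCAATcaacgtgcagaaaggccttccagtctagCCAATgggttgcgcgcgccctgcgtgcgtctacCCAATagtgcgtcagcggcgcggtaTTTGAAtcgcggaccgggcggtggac
Cdk1, chr10:69352883-69353062, minus strand: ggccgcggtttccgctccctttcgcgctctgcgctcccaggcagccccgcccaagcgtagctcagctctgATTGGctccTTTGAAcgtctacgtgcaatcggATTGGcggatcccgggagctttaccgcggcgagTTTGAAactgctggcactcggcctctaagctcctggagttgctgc
Mcm3, chr1:20820283-20820462, minus strand: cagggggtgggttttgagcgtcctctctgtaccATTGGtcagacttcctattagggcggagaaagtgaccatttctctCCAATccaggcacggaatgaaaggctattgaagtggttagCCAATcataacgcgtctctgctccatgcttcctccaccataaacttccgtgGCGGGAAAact
Mcm6, chr1:128359676-128359855, minus strand: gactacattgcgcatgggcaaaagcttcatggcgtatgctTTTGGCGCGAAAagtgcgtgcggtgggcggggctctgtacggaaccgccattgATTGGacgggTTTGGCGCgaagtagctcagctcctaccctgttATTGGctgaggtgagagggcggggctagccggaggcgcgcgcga
Rrm2, chr12:24708104-24708283, plus strand: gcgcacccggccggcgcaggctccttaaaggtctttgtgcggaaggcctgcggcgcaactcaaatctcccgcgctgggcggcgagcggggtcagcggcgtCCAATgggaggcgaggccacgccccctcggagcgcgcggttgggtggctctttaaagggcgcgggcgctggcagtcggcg
Tk1, chr11:117825985-117826164, minus strand: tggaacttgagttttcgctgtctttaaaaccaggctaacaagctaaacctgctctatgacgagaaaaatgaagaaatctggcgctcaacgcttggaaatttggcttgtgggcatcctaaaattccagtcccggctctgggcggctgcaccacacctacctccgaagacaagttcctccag
Birc5, chr11:117849087-117849266, plus strand: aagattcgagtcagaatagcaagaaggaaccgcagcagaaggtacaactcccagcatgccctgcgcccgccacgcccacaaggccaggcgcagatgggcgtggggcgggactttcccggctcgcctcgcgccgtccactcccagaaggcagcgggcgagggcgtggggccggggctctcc
*Top2a* encodes the topoisomerase that untangles DNA, *Ccnb2* a B-type cyclin, *Cdk1* the kinase of mitosis, *Mcm3* and *Mcm6* parts of the replicative helicase, *Rrm2* and *Tk1* enzymes of deoxynucleotide synthesis, and *Birc5* survivin. In *Mcm6*, 2 E2F words overlap in the first run of capitals, and the E2F word of *Cdk1* is left in lower case.

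RefSeq entries of 300 bases (250 before to 50 after the start) were matched for 33 of the 40 members. *Stmn1*, *Ccnd2*, *Ccna2*, *Mcm4*, *Tpx2*, *Aurkb* and *Ccne2* had no entry. TTTGAA was present in 11 of 15 mitotic members (73.3%), in 1 of 12 S-phase members (*Mcm2*) and in 0 of 3 G1 members, against 20.2% of the 27025 genes with an entry. The E2F words showed the opposite split, with 5 of 12 S-phase members (*Cdk2*, *Mcm3*, *Mcm5*, *Mcm6* and *Mcm7*) and 1 of 15 mitotic members (*Cdk1*), against 2.12% of all genes. CCAAT stood in 14 of 15 mitotic and 9 of 12 S-phase members, against 41.1% of all genes, and in *Mcm7* it overlapped an E2F word. These matches describe letters in a window and show no binding.

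Most cells of either sign held few members. The median was 1 of the 32 S-phase and mitotic members in P6+ and in P6- cells, and 7 of 32 P6+ cells and 51 P6- cells (39.5%) held 0. A small number of cells stood far above this, and 6 of 32 P6+ cells (18.8%, 95% interval 7.21 to 36.4%) and 6 P6- cells (4.65%, 1.73 to 9.85%) were multi-member cells. The 2 intervals overlap. With 10 members required, 4 P6+ cells (12.5%, 3.51 to 28.99%) and 1 P6- cell (0.775%, 0.0196 to 4.24%) remained.

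**Figure D1:**
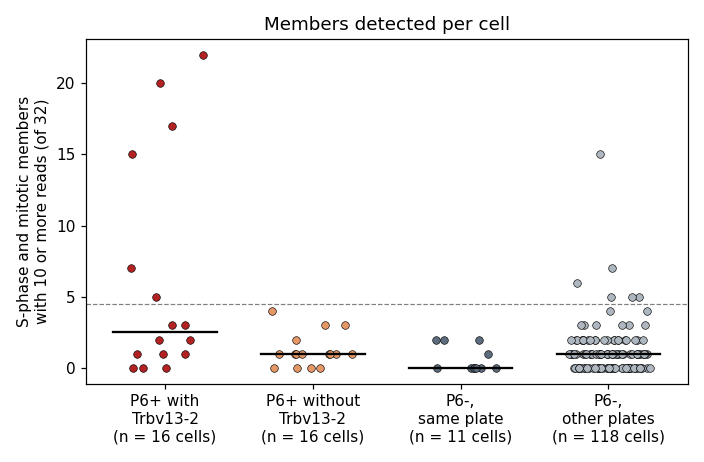
Number of the 32 S-phase and mitotic members with 10 or more reads (vertical axis) in each passing cell (points, spread sideways at random), by group. Bars are medians and the dashed line lies just under 5 members; all 6 P6+ cells above it carried Trbv13-2, and the cells without it held at most 4.

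Within the P6+ cells all 6 multi-member cells carried *Trbv13-2*. They made up 6 of 16 cells with the segment (37.5%, 15.2 to 64.6%) and 0 of 16 without it, where a limit of 3 counts allows a share of up to 18.8% and the exact interval ends at 20.6%. The exact intervals of both shares overlap at their ends. The difference rests on 6 cells of 1 mouse, and the names of these cells carried 1 prefix.

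The cells with and without *Trbv13-2* were sequenced to similar depth, with medians of 1700549 and 1820936 reads and of 4597 and 4222 genes. With the reads of each cell thinned at random to 500000, the counts were 5 of 16 and 0 of 16. Just under the limit, P6+ cell 10 (cells are numbered in accession order), which lacked *Trbv13-2*, held 4 members, all of S phase, as P6- cells 42 and 53 also held 4, and just over it P6+ cell 21 and 3 of the 6 multi-member P6- cells held 5. In P6- cells the split by the same segment gave 3 of 26 with it (11.5%, 2.45 to 30.2%) and 3 cells without it (2.91%, 0.605 to 8.28%), and the intervals overlap.

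Of the 11 same-plate P6- cells 0 were multi-member cells, where 3 counts allow a share of up to 27.3% and the exact interval ends at 28.5%, and their highest count was 2 members. The multi-member P6- cells carried the prefixes 2, 3, 7 and 9. At 3 members in place of 5 the count was 11 of 32 P6+ (34.4%) and 14 P6- cells (10.9%), and 8 of 16 with and 3 of 16 without *Trbv13-2*.

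The 6 P6+ cells were not alike. P6+ cell 32 held 13 S-phase and 9 mitotic members, P6+ cell 11 held 9 and 11, P6+ cell 28 held 10 and 7, and P6+ cell 9 held 10 and 5. These 4 cells had both programs at once, with 4097 to 4485 cpm (reads per 1000000 reads of the cell) summed over the mitotic members and 4308 to 12508 cpm over the S-phase members. P6+ cell 2 held 6 S-phase members (*Mcm2* to *Mcm6* and *Tk1*) and *Top2a* as its 1 mitotic member. P6+ cell 21 was the reverse, with 214 cpm over the S-phase members, of which *Cdk2* and *Pcna* were detected, and 1277 cpm over the mitotic members, from *Mki67*, *Ccnb2* and *Aurkb*. This cell also held 1 of 7 B cell markers at 10 or more reads (*Cd79b*, a subunit of the B cell receptor, 580 cpm), whose part in the result was not tested. With the cells that held a B cell marker left out, 5 multi-member P6+ cells remained.

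**Figure D2:**
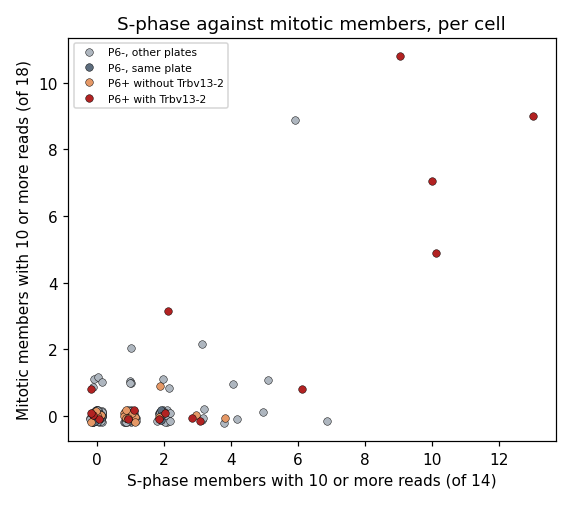
Mitotic members (of 18, vertical) against S-phase members (of 14, horizontal) with 10 or more reads in each passing cell, with a small random shift of each point. Most cells lie at 0 mitotic members; the 4 upper right P6+ points hold 9 to 13 S-phase and 5 to 11 mitotic members, and the single P6- cell nearby holds 6 and 9.

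Among the P6- cells only P6- cell 15 showed this breadth, with 6 S-phase and 9 mitotic members and 7938 cpm over the mitotic members. It alone held 49.8% of all reads of the mitotic members in P6- cells. The remaining 5 held 3 to 7 S-phase and 0 to 2 mitotic members, and P6- cells 12 and 90 had 0 mitotic members. In 4 of these 5, helicase subunits made up 3 or more of the members found, and the last held *Mcm4*, *Pcna*, *Tyms*, *Aurka* and *Cenpf*.

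**Figure D3:**
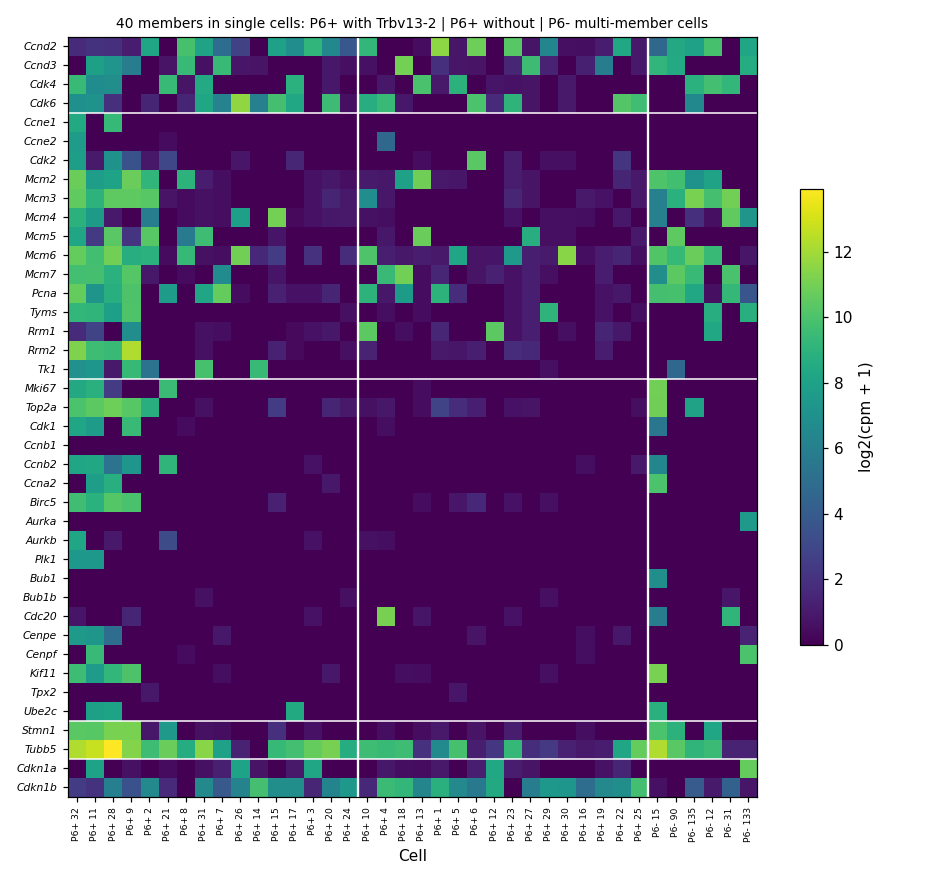
Level of each of the 40 members (rows, by phase, white lines between phases) in each P6+ cell and each multi-member P6- cell (columns, by group and number of members), as log2(cpm + 1). The bright block of S-phase and mitotic rows lies in P6+ cells 32, 11, 28 and 9 at the left and again in P6- cell 15, while Tubb5 and Cdkn1b are spread over most P6+ cells.

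The G1 members differed among themselves. *Cdk4* was detected in 4 of the 6 multi-member P6+ cells and in 4 of the other 26, and *Ccnd3* in 3 and 5. Over all passing cells *Cdk4* was found in 7 of 12 multi-member cells and 20 of 149 others, *Ccnd3* in 6 and 23, *Ccnd2* in 6 and 54 and *Cdk6* in 3 and 25. *Ccnd2*, the main D-type cyclin of activated lymphocytes, was detected in 16 of 32 P6+ cells and in 44 P6- cells, with pooled levels (reads of all cells of a group per 1000000 of their reads) of 260 and 347 cpm. Its reads ran from 0 over a median of 47.5 to 2789 in cells with *Trbv13-2* and from 0 over 1.5 to 3286 in cells without it, so the groups overlap. In the multi-member P6+ cells it had 2 or 3 reads in 4, 0 in cell 21 and 337 in cell 2. *Cdk6* (chr5:3341485-3531008, plus strand), one of its kinase partners, was detected in 15 of 32 P6+ cells at 341 cpm and in 13 P6- cells (10.1%) at 37.1 cpm, a log2 ratio of 3.16 (pseudocount 1 cpm). On the shared plate it was detected in 2 of 11 P6- cells at 10.2 cpm. Among P6+ cells it was found in 9 with and 6 without *Trbv13-2*, at 404 and 276 cpm and highest values of 7905 and 1779 reads, so these groups overlap. P6+ cell 26 held 64.8% of the reads with *Trbv13-2*, and without it the level there was 155 cpm, below that of the cells without the segment, and that of all P6+ cells 217 cpm.

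*Cdk4*, the other partner, was detected in 8 P6+ and 19 P6- cells at 147 and 131.1 cpm, and *Ccnd3* in 8 and 21 cells at 168 and 134.3 cpm. Their log2 ratios were 0.16 and 0.32. With and without *Trbv13-2*, *Cdk4* was detected in 6 and 2 cells at 181 and 110.96 cpm with highest values of 2103 and 2601 reads. *Ccnd3* was detected in 5 and 3 cells, at 132.6 and 204 cpm, with highest values of 1988 and 4660 reads. None of these 4 members differed by more than 2-fold between the P6+ cells with and without the segment. With a single high cell left out, the ratios of *Ccnd2*, *Ccnd3* and *Cdk4* each passed 2-fold.

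Of the helicase subunits *Mcm2* to *Mcm7*, which unwind DNA at the replication fork, *Mcm6* was found in most cells. It was detected in 11 of 32 P6+ cells (34.4%) and 28 P6- cells (21.7%), and its pooled levels were 376 and 283 cpm. Its reads ran from 0 over a median of 5.5 to 5166 in the cells with *Trbv13-2* and from 1 over 2 to 5956 in those without it. *Mcm2* was detected in 8 and 17 cells (234 and 77.5 cpm), *Mcm5* in 7 and 3 (170 and 17.2 cpm) and *Mcm7* in 7 and 10 (185 and 46.2 cpm). These 3 were over 2-fold higher in the P6+ sum. *Mcm3* (138.8 and 92.9 cpm, 6 and 11 cells) and *Mcm4* (75.3 and 106.1 cpm, 5 and 16 cells) were not.

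Single cells without *Trbv13-2* also reached high levels of some of these genes, and P6+ cell 13 held the highest values of both *Mcm2* and *Mcm5* among them. *Mcm5* had 4545 reads, *Mcm7* 4433 and *Mcm2* 5192 in the highest of these cells, above the highest cell with the segment (1502, 2144 and 2999 reads). The sums with and without the segment therefore lay close together for *Mcm2* (269 and 198 cpm), *Mcm5* (162 and 178 cpm), *Mcm6* (449 and 301 cpm) and *Mcm7* (165 and 206 cpm). *Mcm3* and *Mcm4* differed. *Mcm3* was detected in 5 cells with the segment at up to 2499 reads and in 1 without it at 219 reads (265 and 7.89 cpm), and *Mcm4* in 5 and 0 cells, with at most 2940 reads and 1 read (148 and 0.240 cpm). In the multi-member P6+ cells *Mcm3* had 486, 1460, 2, 1554, 1999 and 2499 reads in cells 11, 2, 21, 28, 32 and 9. All but cell 21 were high.

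*Pcna*, the clamp that holds DNA polymerase on its template, was detected in 10 of 32 P6+ cells (31.3%) and 37 P6- cells (28.7%), at 193 and 362 cpm. It was the S-phase member detected in most P6- cells, and its log2 ratio was -0.90. Its highest values with and without *Trbv13-2* were 3650 and 1007 reads (medians 2 and 1), in 7 and 3 cells at 313 and 69.1 cpm. *Pcna* shared 10.1% of its 100-base words with the pseudogene *Pcna-ps2*, so reads may be split between them.

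Of the enzymes of deoxynucleotide synthesis, *Rrm2* and *Tk1* were detected almost wholly in P6+ cells with *Trbv13-2*. *Rrm2* (chr12:24708241-24714146, plus strand), the regulated subunit of ribonucleotide reductase, had 8486, 3265, 770 and 745 reads in P6+ cells 9, 32, 28 and 11 and at most 4 reads in the 16 P6+ cells without *Trbv13-2*. In the P6- cells it reached at most 2 reads. The pooled level was 224 cpm (P6+) and 0.0736 cpm (P6-), and 439 (95% interval 432 to 447) and 0.549 cpm (0.314 to 0.892) with and without *Trbv13-2*, a log2 ratio of 8.15. Its partner *Rrm1* was detected in 1 cell with and 2 cells without *Trbv13-2*, at 7.08 and 155 cpm. *Tk1* (chr11:117815526-117826092, minus strand), the thymidine kinase of S phase, was detected in 6 of 16 cells with the segment and 0 of 16 without it, with highest values of 1657 reads and 1 read, and in 1 P6- cell with 37 reads. *Tyms*, which makes thymidylate, was detected in 5 P6+ and 5 P6- cells at 77.1 and 18.4 cpm, and in 4 cells with and 1 without *Trbv13-2*, at up to 1921 and 1057 reads.

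Of the kinase and cyclins that start replication, *Cdk2* was detected in 5 P6+ cells, and 1 cell without *Trbv13-2* held 2068 reads, 80.4% of the P6+ sum. In the 4 cells with the segment it had 18 to 296 reads. *Ccne1* had 714 and 490 reads in P6+ cells 28 and 32 and at most 1 read in each of the P6- cells, and *Ccne2* had 280 and 56 reads in 2 P6+ cells.

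The mitotic members were detected in few cells. Of the 18, 13 were detected in at least 1 P6+ cell, and 12 of these in no P6+ cell without *Trbv13-2*, where 25% of all genes detected in at least 1 P6+ cell were. The 12 entered the 13 through the cells with *Trbv13-2* alone, and nothing is read from this share. *Mki67*, the proliferation marker Ki-67, had 440, 2229 and 461 reads in P6+ cells 11, 21 and 32, 3527 in P6- cell 15 and under 10 in each of the other passing cells. All 4 cells with *Mki67* (chr7:135689784-135716361, minus strand) were multi-member cells. *Mki67* reached 103.8 cpm (100.2 to 107.5) with *Trbv13-2* and 0.0343 cpm (0.000869 to 0.191) without it. In P6- cells it reached 17.4 cpm, from that 1 cell.

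*Top2a* had 1299, 493, 2036, 1384 and 2241 reads in P6+ cells 11, 2, 28, 32 and 9 and at most 7 in the P6+ cells without *Trbv13-2*. The pooled levels were 247 and 0.652 cpm. In P6- cells it was detected in 6, at 10 to 3376 reads. *Kif11*, the motor that separates the spindle poles, was detected in 4 P6+ cells (198 to 1814 reads) and 2 P6- cells (358 and 3888 reads), and *Birc5*, the survivin subunit of the chromosomal passenger complex, in 4 P6+ cells (456 to 1693 reads) and in 1 P6- cell. Both were at most 3 reads in each P6+ cell without *Trbv13-2*.

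*Ccnb2* was detected in 5 P6+ cells with *Trbv13-2* (43 to 1767 reads), at 92.6 and 0.103 cpm with and without the segment, and in 2 P6- cells with 147 and 651 reads. *Cdk1* had 193, 413 and 1155 reads in P6+ cells 11, 32 and 9 and at most 1 read in the cells without *Trbv13-2*. In P6- cells it had 75 reads in P6- cell 15 and 2294 in a cell that was not a multi-member cell. The other B-type cyclin, *Ccnb1*, had 1 read in all 161 passing cells, although *Ccnb2*, *Cdk1* and *Mki67* were present. *Ccnb1* shared 14.9% of its 100-base words with its pseudogenes, and the part of this in the count was not tested.

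*Cdc20*, the activator of the anaphase-promoting complex, went against the other mitotic members. Its 5030 reads in P6+ cell 4, a cell without *Trbv13-2* and with 3 members detected, were 99.8% of the P6+ sum, and it was the 1 mitotic member detected in that group. It also held 99.2% of the reads of all mitotic members there. *Ube2c*, *Cenpe*, *Ccna2*, *Aurkb*, *Plk1* and *Cenpf* were each detected in 1 to 3 P6+ cells, all with *Trbv13-2*. The highest value of *Ube2c*, 1156 reads, lay in a P6+ cell outside the multi-member cells, and that of *Plk1*, a kinase of spindle assembly, was 3412 reads in 1 P6- cell. *Aurka* and *Bub1* had 0 reads in the P6+ cells and were detected in 1 P6- cell each, and *Bub1b* and *Tpx2* were detected in no passing cell.

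*Stmn1*, which destabilizes microtubules, and *Tubb5*, a beta tubulin, behaved differently from each other. *Stmn1* was detected in 5 of 16 cells with *Trbv13-2* and 0 of 16 without it, with highest values of 3985 and 2 reads, at 332 and 0.240 cpm. All 5 were multi-member cells. In P6- cells it was detected in 9 (6.98%). *Tubb5* was broad, in 22 of 32 P6+ cells (68.8%) and 48 P6- cells (37.2%), at 1165 and 407 cpm. Its reads ran from 0 over a median of 2573 to 17216 in cells with *Trbv13-2* and from 2 over 57.5 to 3489 in those without it, so the groups overlap. Per kilobase of exon *Tubb5* had the highest level of the 40 members in P6+ cells (350 cpm per kb), followed by *Stmn1* (87.9), *Rrm2* (80.8), *Mcm6* (80.6) and *Pcna* (80.5), and the last 3 lie close together. In GENCODE M21 (GRCm38) *Tubb5* spans chr17:35833921-35838306 on the minus strand and *Stmn1* chr4:134468320-134473843 on the plus strand, and *Stmn1* shares 12.8% of its 100-base words with *Gm11223*.

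The inhibitor *Cdkn1b* (p27; chr6:134920401-134925513, plus strand), which holds resting T cells out of the cycle, was detected in 25 of 32 P6+ cells (78.1%) and 63 P6- cells (48.8%), at 177 and 231 cpm. Its reads ran from 0 over a median of 82 to 1404 with *Trbv13-2* and from 0 over 187 to 1942 without it. The pooled levels of 99.2 and 258 cpm gave a log2 ratio of -1.37, and the ranges overlap. In 5 of the 6 multi-member P6+ cells *Cdkn1b* had 3, 6, 7, 18 and 71 reads, and in P6+ cell 2 it reached 92.5 cpm. The highest other cell with *Trbv13-2* held 1404 reads. *Cdkn1a* (p21), a target of p53, was detected in 4 P6+ and 17 P6- cells, at 32.1 and 114.7 cpm.

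**Figure D4:**
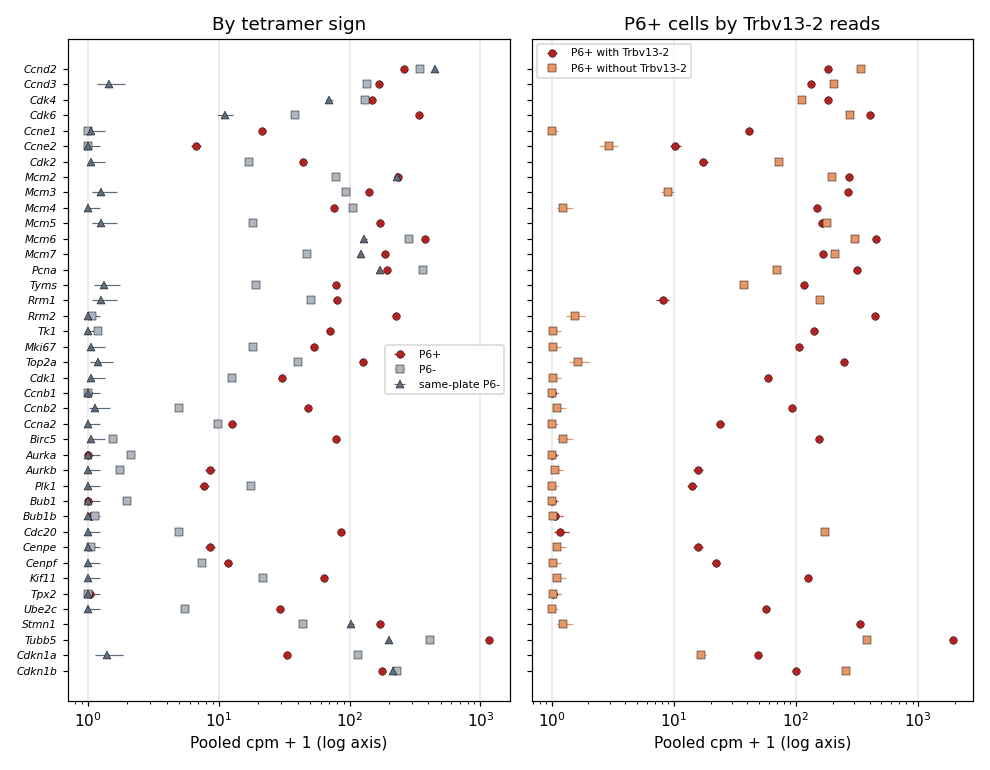
Pooled level of each member, as cpm + 1 on a log axis, by tetramer sign (left) and for P6+ cells with and without Trbv13-2 (right), with exact Poisson 95% intervals of counting error. The mitotic members lie near 1 without Trbv13-2 except Cdc20 at 173 cpm, while Ccnd2, Cdk4, Mcm5 and Mcm7 lie close together on the right.

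Over all members, 19 of the 32 that reached 10 cpm in either group were over 2-fold higher in P6+ than in P6- cells and 2, *Plk1* and *Cdkn1a*, over 2-fold lower, where 24.3% and 29.9% of all 8728 genes tested were. The median log2 ratio of the members was 1.53 and that of all genes -0.05. Single cells carried some of these calls. With the P6+ cell highest in each member left out, 7 of the 19 were no longer 2-fold higher (*Cdk2*, *Mcm2*, *Mki67*, *Cdk1*, *Cdc20*, *Kif11* and *Ube2c*), and the ratio turned for *Cdk2*, *Mki67*, *Cdk1* and *Cdc20*. That of *Plk1* turned without its highest P6- cell. The filter admits a gene through its higher group. Of the 32, 9 reached 10 cpm in P6+ cells alone and 1 in P6- cells alone, so nothing is read from the share or the median over the members. With no filter 22 of 40 were higher and 4 lower. Against the 11 P6- cells of the same plate 25 of 31 members were higher and 0 lower, where 50.3% and 24% of all 7761 genes tested were, and the medians were 4.93 and 1.04. Of the 31, 21 reached 10 cpm in the P6+ cells alone, and nothing is read from the share or the median over the members. The median over all genes was thus itself above 0 against these 11 cells.

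Among P6+ cells, 22 of 34 members were over 2-fold higher with than without *Trbv13-2* and 4 (*Cdk2*, *Rrm1*, *Cdc20* and *Cdkn1b*) over 2-fold lower, where 34.9% and 33.4% of all 7660 genes were. Without the highest cell of either group, *Tyms*, *Aurkb*, *Cenpf* and *Cdkn1a* were no longer 2-fold higher and *Cdk2* and *Cdc20* no longer lower. The ratio turned for *Cenpf*, *Cdk2* and *Cdc20*. With no filter 23 of 40 were higher and 4 lower. The median log2 ratio was 3.83 for the 34 members and 0.01 for all genes past the filter. Of the 34, 18 reached 10 cpm in the cells with *Trbv13-2* alone, among them 12 of the 13 mitotic members past the filter (of 18). These passed through their higher group, and nothing is read from the share or the median over the members. Another count used cells rather than sums and was chosen after values were seen, and it restates the detections above. Of the 28 members detected in 3 or more P6+ cells, 12 were detected in cells with *Trbv13-2* and in no cell without it, and 0 the other way round. The same held for 7.5% and 2.37% of all 5815 such genes. The 12 were *Mcm4*, *Rrm2*, *Tk1*, *Stmn1* and all 8 mitotic members of that set, and they entered the 28 through the cells with *Trbv13-2* alone.

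The pooled ratios were also taken without the multi-member cells. These cells were defined by the same members and the 6 P6+ ones all carried *Trbv13-2*. A lower ratio with over without the segment thus follows from the step itself, and its size is a description. With them left out, the log2 ratio with over without *Trbv13-2* turned from 1.05 to -0.29 for the summed S-phase members and from 2.39 to -1.59 for the summed mitotic members. The latter sign rests on 1 cell a side, as P6+ cell 4 held 99.2% of the mitotic reads without *Trbv13-2*, nearly all of it *Cdc20*, and 80.5% of those in all P6+ cells left, and *Ube2c* in the cell with 1156 reads made up most of the remainder. For P6+ over P6- cells the same step, which leaves out cells of both signs, took it from 0.82 to 0.26 and from 2.01 to 1.09. The latter rests on P6+ cell 4 as well. With the cell highest in the list also left out of each group, an alternative chosen after seeing the data, the S-phase ratio was 0.17 and the mitotic ratio turned to -0.67, while with over without *Trbv13-2* they were -0.25 and -0.053. The pooled levels of the S-phase members were 2536 and 1225 cpm with and without *Trbv13-2* and 1892 and 1069 cpm in P6+ and P6- cells, and those of the mitotic members 920 and 174 cpm and 554 and 137.1 cpm.

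Genes of the same programs that were not used to find the multi-member cells were counted beside them. Of 38 other replication genes, the 6 multi-member P6+ cells had a median of 18.5 detected (2 to 25), against 1 (0 to 4) in the other 26 P6+ cells, and of 52 other mitotic genes 18 (3 to 39) against 2.5 (0 to 5). P6+ cells 2 and 21 were at the low end, with 6 and 2 replication genes and 3 and 7 mitotic genes. The 6 multi-member P6- cells had medians of 5 (2 to 16) and 6 (1 to 15), against 1 (0 to 6) and 2 (0 to 5) in the other P6- cells. Only P6- cells 15 and 90 lay above the other P6- cells for replication genes, and 4 of the 6 did for mitotic genes. P6+ cell 21 lay inside the range of the other P6+ cells for replication genes and P6+ cell 2 for mitotic genes, and the remaining 5 P6+ cells lay above it in each case.

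**Figure D5:**
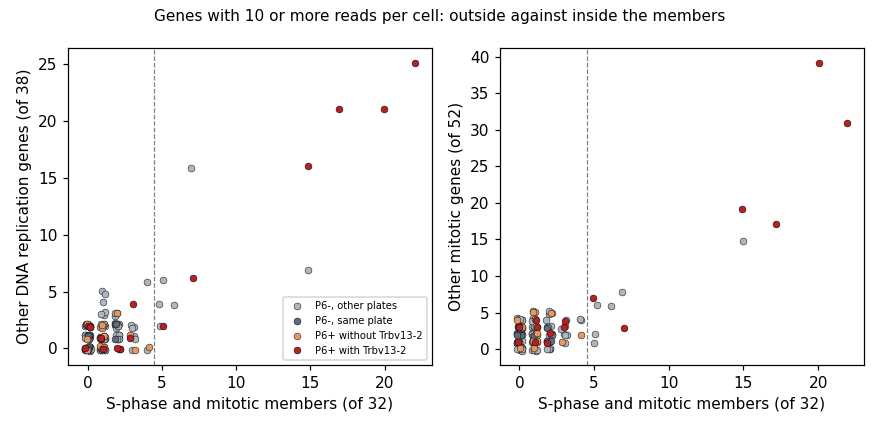
Other DNA replication genes (left, of 38) and other mitotic genes (right, of 52) with 10 or more reads against the S-phase and mitotic members of the same cell (of 32), 1 point a passing cell with a small random shift. The 4 P6+ cells with 15 or more members hold 16 to 25 other replication and 17 to 39 other mitotic genes, while cells left of the dashed line hold at most 6 and 5.

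Among these genes *Uhrf1*, which takes part in the upkeep of DNA methylation, was at 303 and 0.412 cpm with and without *Trbv13-2*, in 4 and 0 cells. *Pold1*, a polymerase subunit (231 and 0.378 cpm), and *Lig1*, the ligase of lagging-strand fragments (189 and 0.172 cpm), followed, also in 4 and 0 cells each. In all, 23 of 28 replication genes over the filter were over 2-fold higher and 0 lower, and 35 of 45 mitotic genes were higher and 4 lower, where 34.9% of all genes were higher and 33.4% lower. Of these, 19 of the 28 and 30 of the 45 reached 10 cpm in the cells with *Trbv13-2* alone, so they had to be higher there and nothing is read from the shares. With no filter 29 of 38 and 38 of 52 were higher and 0 and 4 lower. Summed, the replication genes stood at 2466 and 366 cpm with and without *Trbv13-2* and the mitotic genes at 3426 and 1400 cpm. The spindle genes *Nusap1* (146 and 0.0343 cpm, 4 and 0 cells) and *Ckap2l* (153 and 0.103 cpm, 5 and 0 cells) led, while *Pttg1*, the securin that guards sister chromatids, was lower (3.51 and 79.5 cpm, 1 and 3 cells). The mitotic list also held *Smc4* and *Hmgb2*, which were detected in 17 and 16 of 32 P6+ cells and in 58 and 53 P6- cells, most of them not multi-member cells.

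Of 29 regulators over the filter, 18 were higher with *Trbv13-2* and 7 (24.1%) lower, where 34.9% and 33.4% of all genes were. Since 13 of the 29 reached 10 cpm with the segment alone, nothing is read from the share that was higher. The sums were 2065 and 1743 cpm. The partner of MuvB, *Mybl2* (B-Myb), was at 81.04 and 0.103 cpm in 2 and 0 cells, and *E2f8*, an atypical E2F that closes S phase, at 73.2 and 0.103 cpm in 3 and 0 cells. Among the lower were *Cdk7* and *Ccnh*, parts of the kinase that activates other Cdk proteins (7.15 and 158 cpm in 1 and 3 cells, 11.8 and 117.2 cpm in 4 and 1 cells), and *Myc*, a transcription factor of cell growth (26.1 and 236 cpm in 2 and 3 cells). For *Ccnh* more cells held the gene on the side with the lower sum, as 1 cell with 3400 reads made up 99.6% of the sum without *Trbv13-2*. Of 14 quiescence genes 2 (14.3%) were higher, a smaller share than the 34.9% of all genes, and 5 (35.7%) lower, close to the 33.4%. The 2 higher were *Pik3ip1*, an inhibitor of PI3 kinase signalling (12.02 and 0.515 cpm, 1 and 0 cells), and *Btg3*, of the family that slows growth (13.1 and 2.33 cpm, 1 and 2 cells). The lower included *Klf2*, which keeps T cells resting and recirculating, at 58.5 and 703 cpm in 4 and 7 of 16 cells, *Btg2*, a brake on G1 exit, at 123.4 and 392 cpm in 3 and 6 cells, and *Tsc1*, a brake on mTOR, at 1.62 and 198 cpm in 2 and 6 cells. Over all 15 quiescence genes the level was 2603 and 4374 cpm with and without *Trbv13-2*, and 2063 cpm in the 12 multi-member cells against 5016 cpm in the other 149.

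Between P6+ and P6- cells the same lists were counted in the same way. Over 2-fold higher in P6+ cells were 14 of 27 replication genes (3 lower), 23 of 39 mitotic genes (5 lower) and 13 of 29 regulators (5 lower), where 24.3% of all genes were higher and 29.9% lower. Of these, 10, 20 and 9 reached 10 cpm in P6+ cells alone, and nothing is read from the shares. Summed, the replication genes stood at 1435 cpm in P6+ cells, 1002 cpm in P6- cells and 897 cpm in same-plate P6- cells, and the mitotic genes at 2432, 2233 and 2463 cpm. Without the multi-member cells, P6+ and P6- cells had 465 and 911 cpm of the replication genes and 1483 and 2143 cpm of the mitotic genes, lower in P6+ cells for both, although that step takes out 6 of 32 P6+ cells and a smaller share of P6- cells. The regulators stood at 1907 cpm in P6+ and 1588 cpm in P6- cells. *Uhrf1* led the replication genes with 155 and 0.255 cpm, while *Orc6*, a subunit of the origin recognition complex, was lower (6.02 and 59.9 cpm, 2 and 10 cells). Of 15 quiescence genes 1, *Tsc1*, was higher and 4 (26.7%) were lower, no larger a share than that of all genes. *Pik3ip1* stood at 6.37 and 189 cpm, in 1 and 20 cells. *Btg1*, which slows cell growth, was detected in 31 of 32 P6+ cells at 1115 cpm and stood at 2256 cpm in P6- cells.

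Of genes outside every list, 1337 candidates reached 20 cpm and were detected in 6 or more of the 12 multi-member cells. The 10 of these with the highest pooled ratio in the 12 cells over the other 149 were *Gm5487*, *Gm11223*, *Dnmt1*, *Smc1a*, *Fabp5*, *Psph*, *Tuba1b*, *Sdf2l1*, *Ndufa10* and *Selenoh*, with log2 ratios from 3.99 to 2.75. *Gm5487* and *Gm11223* share sequence with *Mcm7* (4.32% of its words) and *Stmn1* (12.8%), and reads of the pairs may be split. *Dnmt1*, which maintains DNA methylation behind the fork, was at 404 and 31.9 cpm, and *Tuba1b*, an alpha tubulin, at 618 and 66.7 cpm. These genes are a description, as the members chose the cells.

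The multi-member cells had fewer reads at the median than the others and more genes detected. The P6+ ones had a median of 1271676 reads against 1859737 in the other P6+ cells, with medians of 4858 and 4286 genes detected. In P6- cells the medians were 1434450 and 1536182 reads and 4328 and 3395 genes. Thinned to 500000 reads a cell, the medians were 3660 and 2680 genes in P6+ cells and 2975 and 2214 in P6- cells, so the number of genes detected moved with the number of members, and its part in the result was not tested. All 12 expressed T cell markers, at 3668 to 10760 cpm over 8 genes, while *Cd8a*, *Cd8b1* and all 8 myeloid markers had 0 reads in them. *Xbp1*, a secretory factor on the plasma cell list, was detected in 8 of the 12 and that list in 66 of the other 149 cells, and *Jchain*, *Mzb1* and *Sdc1* had 0 reads in the 12. *Foxp3*, the factor of regulatory T cells, was detected in 5 of the 6 multi-member P6+ cells and in 6 of the other 26, and in 2 of 6 multi-member and 17 other P6- cells. Among the other P6+ cells *Foxp3* was detected in 4 of 10 with and 2 of 16 without *Trbv13-2*. *Foxp3* and *Trbv13-2* thus moved together with the members, and their parts in the result cannot be told apart in these few cells.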

How the data were processed

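Single cells were sequenced by Smart-Seq2, and the authors mapped the reads with STAR 2.6.0a to GRCm38 (FastQC 0.11.7 and SAMtools 0.1.19 are also named in the submitters' processing notes), counted reads per gene and deposited raw counts of 176 cells, neither normalized nor filtered, in 53647 rows. Rows of the 81 names listed more than once were averaged. No column was left unmapped (0), 0 rows held reads outside genes, and the tetramer sign in the deposited metadata matched the label of all 176 cells. The library does not mark strand, so overlapping and antisense genes cannot be told apart.

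Cells with 500000 reads, 2000 genes and under 10% mitochondrial reads (37 genes) passed, which left 161 of 176; 7 failed on reads and 8 on mitochondrial reads. Depth ran from 522188 to 3401373 reads per passing cell. Counts of a group were summed and divided by its total (cpm), and log2 ratios used a pseudocount of 1 cpm and, in counts of genes, a minimum of 10 cpm in either group and a change of 2-fold. A count of 0 allows 3 counts. TMM factors (edgeR 4.0.16, R 4.3.3) were computed on the pooled sums without a test. Sequence words of 100 bases shared between genes, exon lengths and positions came from GENCODE M21. Doublets were not searched for computationally, since sorting put 1 cell in each well. The scripts were tested on simulated data before use. Python 3.11.15, numpy 2.4.6, pandas 2.3.3, scipy 1.17.1 and matplotlib 3.10.9 were used.

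Alternatives varied the members and reads required, the thinning, the quality limits, the pooling, scaling and pseudocount, and the fold. The members, the other gene lists and the split by Trbv13-2 at 10 reads were chosen with earlier results of these data known. Values are given for each member detected in 20% of the cells of a group and for the main proliferation genes, and the rest by range. Of the other lists the 3 genes found in most cells and the 3 at each end of the ratios were candidates, of which some are named. Lin54 was listed among the regulators and is not analysed here.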

Additional observations from a re-analysis of the deposited data

How the results depend on the processing

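The counts of multi-member cells moved with the number of members and reads required and with the members counted. With 3 members required there were 11 multi-member P6+ cells (3 without Trbv13-2) and 14 P6- cells, and with 10 members 1 P6- cell. With a single read taken as detection the counts were 29 P6+ (14 with and 15 without Trbv13-2), 57 P6- and 3 same-plate P6- cells. With all 40 members counted they were 15 P6+ (12 with and 3 without), 21 P6- and 1 same-plate P6- cells. Without the 7 members with the most overlap or shared sequence with other genes, an alternative chosen after seeing the data, 3 P6- cells remained. Members with smaller overlaps, such as Cdc20 and Tk1, were kept. Among P6+ cells those with Trbv13-2 outnumbered those without it in all these counts but those at a single read.

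The log2 ratio of the summed S-phase members, P6+ over P6-, was 0.82, and 0.94 with the mean of cpm over cells, 0.79 with TMM factors, 0.64 without the top cell of each group, 0.26 without the multi-member cells and 0.88 with no quality limits. Over same-plate P6- cells it was 1.54, and in the same order 1.39, 1.47, 2.07, 0.80 and 1.58. With over without Trbv13-2 it was 1.05, and 1.54 with the mean over cells, 1.09 with TMM factors, 0.97 without the top cells and, reversed, -0.29 without the multi-member cells. For the mitotic members, P6+ over P6-, 2.01 became 2.24, 1.97, 2.67, 1.09 and 2.08 in that order and 1.94 with a pseudocount of 10 cpm. Over same-plate P6- cells 8.51 became 9.81 and 5.74 with pseudocounts of 0.1 and 10 cpm and 6.38 without the multi-member cells. The multi-member cells were defined by these members. Leaving them out lowers the ratio by construction over same-plate P6- cells and over P6+ cells without Trbv13-2, which hold none of them. In P6+ over P6- cells they were left out of both groups. With over without Trbv13-2, 2.39 became 3.14 with the mean over cells, 2.34 with a pseudocount of 10 cpm, 8.16 without the top cell, which leaves out the Cdc20 cell, and, reversed, -1.59 without the multi-member cells. At 4-fold, 10 members were higher in P6+ than in P6- cells and 0 lower, and with no filter on low values 4 were lower. With the top cell of each group left out after the multi-member cells, an alternative chosen after seeing the data, the S-phase ratios were 0.17 (P6+ over P6-), 1.41 (same plate) and, reversed, -0.25 (with over without Trbv13-2), and the mitotic ratios, in that order, -0.67 (reversed), 4.29 and -0.053 (reversed). With the cell highest in each member left out of 1 group at a time, also chosen after seeing the data, 12 members were higher and 7 lower in P6+ than in P6- cells without the P6+ cell and 1 lower without the P6- cell, 1 was lower than in same-plate P6- cells without the P6+ cell, and 7 and 2 were lower with Trbv13-2 without the cell with and without the segment. Besides these 52 moved and 5 reversed values, 73 others stayed within 1.5 times (counts) or within the counting interval (log2 ratios).

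No paired analysis was possible because no result comes from a test, and the labels give no number that pairs single cells of different groups; the plate prefix that P6+ cells share with 11 P6- cells is used for the same-plate comparison. All P6+ cells came from 1 mouse, so the spread between mice is unknown, and at 10 reads a transcript missed by the chemistry cannot be told from one that was absent.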
